A study of Mus musculus with 6 samples.

Results

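RNA polymerase II at gene starts and over gene bodies was compared in adrenal glands of wild-type (WT) mice. Chromatin bound by RPB1, the largest subunit of the enzyme, was immunoprecipitated with an antibody against its N-terminal domain and sequenced (ChIP-seq). The 3 WT libraries were taken from a series of 6, in which the other libraries came from Armc5(-/-) mice and were not used. All mice were female, of strain 129 sv X CD1 and aged 10 to 14 months, and none of the 3 WT mice carried a label of a treatment. Each library bears its own mouse number and was taken as 1 animal. The whole gland was homogenised and crosslinked with formaldehyde, so cortex, medulla, capsule and vessels were measured together, and fewer cells of a type cannot be told apart from less polymerase per cell. The members are the 12717 genes of the deposited tables, out of 12718, after Gm10800 was left out. Each gene has 1 count at its transcription start site (TSS) and 1 over its gene body in each library.

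Polymerase II initiates at a promoter and, at many genes, halts a short way into the transcript, held there by the factors DSIF and NELF until the kinase P-TEFb releases it into the gene body. A gene can therefore carry much polymerase at its start and little beyond, or polymerase along its whole length. In the adrenal cortex steroid hormones are made from cholesterol in response to ACTH through cAMP, and the chromaffin cells of the medulla make catecholamines. An antibody to the N-terminal domain does not depend on the phosphorylation of the C-terminal repeat, so it reads polymerase at both stages.

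The promoters of 5 genes that stand for the patterns described here are shown from RefSeq on GRCm38.p6, each as 300 bases in the direction of the gene, with 250 bases before the start. Polr2a led the named genes at the start, Arl15 and Dusp1 stood near the 2 ends of the ratio per kb, Fos was high in both regions, and Cyp11a1 had one of the lowest start counts beside a dense body. Cyp11a1 has 2 RefSeq starts and both are shown. Capitals mark matches on either strand to a GC box (GGGCGG), the TATA box letters TATAAA, the CCAAT box or a cAMP response element (TGACGTCA).
Polr2a, chr11:69758584-69758883, minus strand: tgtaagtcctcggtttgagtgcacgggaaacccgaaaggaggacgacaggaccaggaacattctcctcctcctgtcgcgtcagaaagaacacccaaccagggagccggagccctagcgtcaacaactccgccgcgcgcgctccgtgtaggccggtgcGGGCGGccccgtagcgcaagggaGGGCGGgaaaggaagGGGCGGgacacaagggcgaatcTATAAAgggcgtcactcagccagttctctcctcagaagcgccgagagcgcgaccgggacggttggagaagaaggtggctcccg
Arl15, chr13:113794258-113794557, plus strand: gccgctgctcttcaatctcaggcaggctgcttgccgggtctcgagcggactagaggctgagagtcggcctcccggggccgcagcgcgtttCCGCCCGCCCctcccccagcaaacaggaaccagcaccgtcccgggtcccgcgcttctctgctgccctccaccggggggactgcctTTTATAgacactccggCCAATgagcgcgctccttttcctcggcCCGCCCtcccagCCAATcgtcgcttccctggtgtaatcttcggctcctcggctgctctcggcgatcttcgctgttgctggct
Fos, chr12:85473640-85473939, plus strand: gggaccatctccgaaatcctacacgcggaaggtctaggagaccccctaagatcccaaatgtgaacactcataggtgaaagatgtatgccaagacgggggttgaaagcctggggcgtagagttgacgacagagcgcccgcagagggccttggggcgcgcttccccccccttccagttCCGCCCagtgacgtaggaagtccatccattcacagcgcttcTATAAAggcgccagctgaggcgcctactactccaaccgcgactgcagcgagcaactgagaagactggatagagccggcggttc
Dusp1, chr17:26508423-26508722, minus strand: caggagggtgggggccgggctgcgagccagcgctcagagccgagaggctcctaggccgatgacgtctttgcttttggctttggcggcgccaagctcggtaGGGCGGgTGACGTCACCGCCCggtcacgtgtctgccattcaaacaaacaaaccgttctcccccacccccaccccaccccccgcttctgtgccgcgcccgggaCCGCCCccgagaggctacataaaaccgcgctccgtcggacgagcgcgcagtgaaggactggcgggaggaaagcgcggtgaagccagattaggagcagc
Cyp11a1, chr9:57997774-57998073, plus strand, outer start: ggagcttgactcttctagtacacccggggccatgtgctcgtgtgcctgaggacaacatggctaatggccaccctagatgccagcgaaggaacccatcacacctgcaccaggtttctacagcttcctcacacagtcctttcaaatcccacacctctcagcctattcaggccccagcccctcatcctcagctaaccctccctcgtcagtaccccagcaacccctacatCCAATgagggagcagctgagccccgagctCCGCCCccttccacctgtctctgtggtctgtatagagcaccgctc
Cyp11a1, chr9:58014702-58015001, plus strand, inner start: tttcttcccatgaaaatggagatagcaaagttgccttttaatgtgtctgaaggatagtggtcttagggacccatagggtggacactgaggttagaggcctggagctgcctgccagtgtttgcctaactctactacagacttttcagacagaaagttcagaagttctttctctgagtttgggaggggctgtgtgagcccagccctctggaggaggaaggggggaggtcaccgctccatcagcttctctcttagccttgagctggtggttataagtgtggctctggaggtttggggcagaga

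The Polr2a window holds 3 GC boxes and a TATAAA whose first base lies 33 bases before the start, and the Fos window holds a TATAAA at the same distance. The Dusp1 window holds the cAMP response element, 143 bases before the start, between GC boxes. The window of the inner Cyp11a1 start holds none of these letters. Of the 10019 genes with a RefSeq window, 66.3% hold a GC box, 38.9% CCAAT, 6.76% TATAAA and 3.38% the full cAMP response element. A match is a description of letters and not of a bound factor.

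TSS totals without Gm10800 were 1649154, 848522 and 2881576 counts in WT replicates 1, 2 and 3, and gene body totals were 18381143, 12085069 and 21200368. Values are counts scaled to a common table total (CPM), so a CPM ratio of 1 means an equal share of both tables. The libraries differed in contrast: the 95th percentile of gene body CPM per kb was 13.9, 6.79 and 23.4 times the 5th percentile in replicates 1, 2 and 3. Gm10800 held 10.9%, 25.1% and 3.39% of TSS counts in the same order. Replicate 2 was thus the shallowest and flattest library. The predicted genes Gm10722 and Gm10801 led the TSS table, with between 1530 and 13191 CPM, in the same order of libraries as Gm10800. Predicted genes and small RNAs, 537 symbols, were counted but are not described. The width of the start window, the start counted where a gene has several, and any input library are not stated in the labels or tables. Nor is it stated whether the gene body count leaves out the start. Gene body values of short genes can therefore hold reads from the start.

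In all 3 libraries 6426 genes (50.5%) had more TSS than gene body CPM, and 4185 genes (32.9%) had less. With edgeR's quasi-likelihood test and the library as a block, 9367 of 12714 genes tested (73.7%) differed between the regions: 5757 (45.3%) had a higher TSS than gene body share and 3610 (28.4%) had a lower one, at a Benjamini-Hochberg adjusted p under 0.05. The order of genes by this ratio was alike in the 3 libraries, with Spearman's rho across genes of 0.97, 0.92 and 0.89 for the 3 pairs, which share their gene lengths.

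The CPM ratio followed gene length. In the shortest of 5 equal groups of genes (median span 4.24 kb) the median log2 ratio was 1.96, and in the longest (118.8 kb) it was -1.66. The count at the start hardly varied with length, with medians between 54.0 and 65.8 CPM in the 5 groups, while the median gene body count rose from 15.3 to 161.4 CPM. The ratio was therefore also taken per kb: TSS CPM divided by gene body CPM per kb of RefSeq span, relative to the median gene of the library, here called the promoter index. Spans were found for 12520 genes. The index leaned the other way with length, from a median log2 of -1.04 in the shortest group to 0.53 in the longest, so short and long genes are compared on both scales. On the index, 8260 of 12517 genes tested (66%) differed from the median gene. Of these, 4142 (33.1% of genes tested) stood above the median gene and 4118 (32.9%) below it in the same edgeR test, adjusted p under 0.05.

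**Figure D1:**
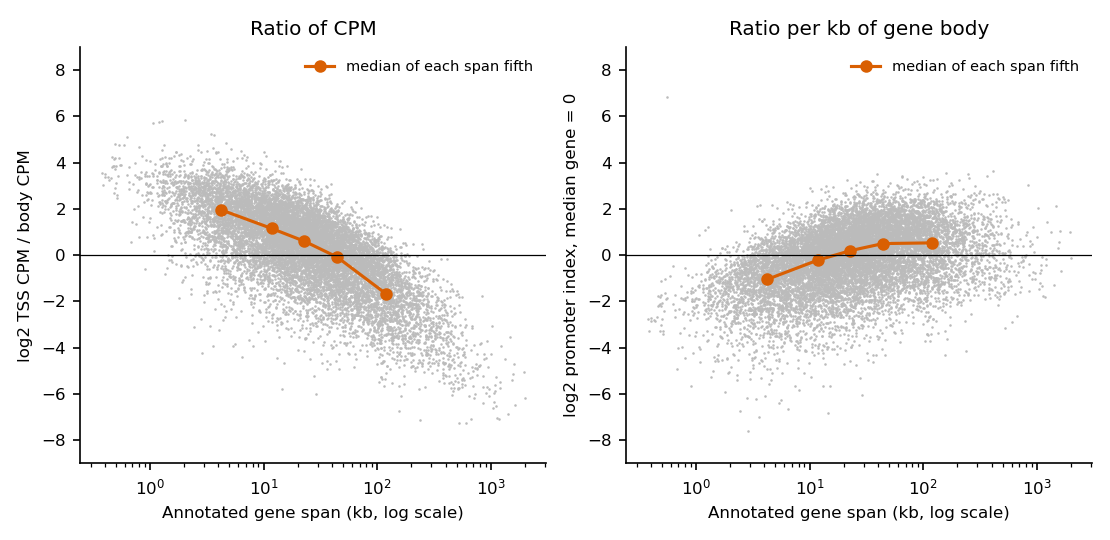
Each grey point is 1 gene, placed by its RefSeq span in kb (log axis) and its mean log2 ratio of TSS to gene body CPM over 3 WT libraries (left) or its mean log2 promoter index (right). Orange points are medians of 5 equal groups by span, which fall from 1.96 to -1.66 on the left and rise from -1.04 to 0.53 on the right.

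The genes with the most polymerase at the start were ranked by the lowest of the 3 libraries. Polr2a, which encodes RPB1 itself, came first with 732, 631 and 717 CPM at the start, against a median gene at 60.6, 61.3 and 56.2 CPM. Others of the 8 genes in this group were Jund and Junb, subunits of the AP-1 transcription factor, H2-DMa, Mgat4b, Ttc39d and Hist4h4. All 8 had at least 476 CPM at the start in every library, and Rhob, the next gene, had 456 CPM in its lowest library. The start of H2-DMa lies 225 bp from that of Brd2 and their spans overlap, and Ttc39d overlaps Gemin6, so the gene behind these counts is uncertain.

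Gene body counts of Polr2a differed between the libraries, at 273, 220 and 959 CPM in replicates 1, 2 and 3, while its start did not separate replicate 3 from the others. Its log2 index was 1.09, 1.15 and -0.56, so the named gene with the most promoter signal had more than the median gene's share at the start in 2 mice and less in the third. Jund carried 648, 536 and 745 CPM at the start and 84.3, 57.6 and 84.2 CPM over its body. Junb was the only gene in both the promoter group and the group with the densest gene bodies, with 483, 480 and 477 CPM at the start and 190, 118 and 109 CPM per kb over the body.

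The densest gene bodies, among genes of at least 1 kb, belonged to Junb, Lrrc4, Dusp1, Atp5o, Epo, Star, Id3 and Fgfr2. All had at least 39.7 CPM per kb in every library, where the median gene had 1.66, 1.69 and 1.83, and Zfp36, the next gene, had 38.8 in its lowest library. Star encodes the protein that moves cholesterol into mitochondria, the step that limits steroid synthesis. It carried 118, 46.2 and 74.6 CPM per kb. Dusp1, an early-response phosphatase, carried 80.0, 66.4 and 91.3 CPM per kb. Lrrc4, a synaptic adhesion gene that lies within the span of Snd1, carried 80.7, 75.8 and 71.1 CPM per kb. Because of that overlap the gene behind these counts is uncertain. Epo, the gene of erythropoietin, had near equal shares of both tables, with 143, 108 and 148 CPM at the start and 159.5, 139.1 and 199.4 CPM over a body of 2.80 kb. Id3, an inhibitor of helix-loop-helix factors, held 116, 106 and 42.0 CPM at the start and 53.6, 41.8 and 66.1 CPM per kb over the body, so replicate 3 had its lowest start and its densest body.

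These genes did not vary alike across the mice. In replicate 2 the gene body level of Star was 0.48 times the mean of replicates 1 and 3, that of Fdx1 0.43 times and that of Scarb1 0.42 times. Lrrc4, Fgfr2 and Atp5o stood at 1.00, 1.03 and 1.14 times. Fgfr2, a fibroblast growth factor receptor, also had the highest total over a gene body by the lowest library, with 4591, 4481 and 4141 CPM over a span of 104.4 kb. It was followed by Dlg2, Gramd1b, Zbtb20 and Rora. Of these, Gramd1b, a transporter of cholesterol from the plasma membrane to the endoplasmic reticulum, had 3986, 1513 and 3405 CPM, with replicate 2 again the lowest. Dlg2 reached 2804, 2225 and 2117 CPM over 1973 kb, which is only 1.42, 1.13 and 1.07 CPM per kb, below the median gene.

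**Figure D2:**
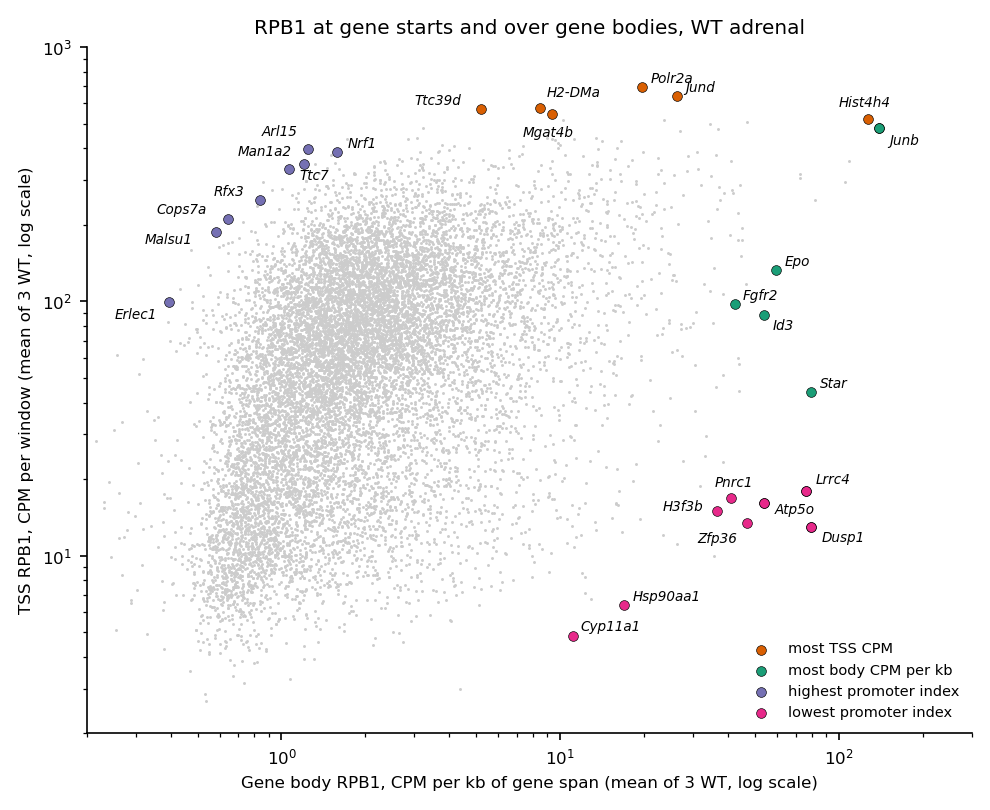
Mean RPB1 signal of 3 WT libraries at the start (CPM, vertical) against the gene body (CPM per kb, horizontal), both on log axes. Grey points are genes, and coloured points are the genes with the most signal in each region or the most extreme promoter index. Cyp11a1 and Hsp90aa1 lie at the bottom, with starts below 10 CPM beside dense bodies.

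Signal in the 2 regions was loosely related. Spearman's rho across genes between TSS CPM and gene body CPM per kb was 0.52, 0.45 and 0.41 in the 3 libraries. Of the 500 genes with the most CPM at the start, 113 (22.6%) were also among the 500 densest gene bodies, against 3.99% of all genes in a list of that size. The opposite corners were thinly filled. In the top 5% of gene body density, 17 genes had a start in the lowest 10%, among them Cyp11a1, Hsp90aa1, the ribosomal protein gene Rpl3 and Ywhaz. Another 88 genes were in the top 5% at the start with a gene body in the lower 50%. Of the genes with RefSeq windows, 3 of 12 in the first of these groups had more than 1 RefSeq start, against 1859 of 10019 (18.6%) overall.

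The highest CPM ratios of TSS to gene body belonged to short genes: Dbil5, Rtl10, Ttc39d, Rpl36al, Hist2h2be, Mrpl41, Hist1h2bb and Moap1. Those with a span measured 0.490 to 3.83 kb. Rtl10 had no span in the annotation used. Dbil5 had 133, 164 and 166 CPM at the start and 2.83, 3.64 and 2.41 CPM over the body, a mean ratio of 52.3. Its start lies 41 bp from that of Gemin4. Rpl36al starts 91 bp from Mgat2 and Moap1 58 bp from Tmem251, so a window at these starts can read both genes. The lowest of the 3 log2 ratios was 4.33 for Moap1, the last gene included, and 4.27 for Tmem199, the first left out.

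The lowest CPM ratios belonged to long genes: Psd3, Sgcz, Cdh13, Cacna1c, Nrg3, Gpc5, Csmd1 and Gramd1b, with spans of 240.4 to 1643 kb. Psd3 had 6.06, 5.89 and 4.16 CPM at the start, from 10, 5 and 12 counts, and 979.5, 744.2 and 903 CPM over 523 kb. Per kb the group was not uniform. Gramd1b and Cacna1c had bodies above the median gene in every library, from 1.92 to 16.6 CPM per kb. Psd3, with 1.87, 1.42 and 1.73 CPM per kb, was above it in replicate 1 and below it in replicates 2 and 3. Sgcz, Cdh13, Nrg3, Gpc5 and Csmd1 had 0.23 to 0.93 CPM per kb, below the median gene in every library. For the latter 5 the ratio of CPM is low while both starts and bodies are low. Start counts were as few as 5, 4 and 8 for Sgcz and 8, 8 and 3 for Cdh13. The gene body level of Csmd1 in replicate 2 was 1.84 times the mean of the other libraries and that of Gpc5 2.08 times, the reverse of Star. The highest of the 3 log2 ratios was -6.12 for Gramd1b, the last gene included, and Snd1 was the first gene left out.

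The highest ratios of TSS CPM to gene body CPM per kb belonged to Malsu1, Arl15, Man1a2, Cops7a, Erlec1, Ttc7, Nrf1 and Rfx3. Their mean promoter index was 8.13 to 11.2 times that of the median gene. Arl15, a small GTPase gene of 363 kb, had 364, 396 and 433 CPM at the start and 1.32, 1.26 and 1.15 CPM per kb over the body. Nrf1, a transcription factor of nuclear genes for mitochondrial proteins, had 380, 369 and 406 CPM at the start and 1.54, 1.60 and 1.60 CPM per kb. Cops7a, a subunit of the COP9 signalosome, had 210, 217 and 208 CPM at the start and 0.57, 0.53 and 0.83 CPM per kb. The SD of the log2 index over the 3 libraries was 0.11 to 0.59 for these genes, and all 8 had gene bodies below the median density of their library. By mean density the bodies of Erlec1, Malsu1 and Cops7a lay at percentiles 0.47, 2.49 and 4.40 of all genes. The rest lay at percentiles 13.4 to 44.6. How much of such low body counts is background was not tested. The index is per kb of span, and the RefSeq spans of Erlec1, Malsu1 and Cops7a were 91.6, 65.35 and 39.5 kb. Whether polymerase was counted over the whole of these spans was not tested, so the ranks of these genes rest on the spans. The span of Cops7a overlaps Pianp and that of Erlec1 overlaps Psme4 and Gpr75, so the gene behind their body counts is uncertain. The start nearest to that of Cops7a was 31208 bp away. Ttc7 starts 72 bp from another annotated gene, so its start window can read both. Malsu1, Man1a2 and Erlec1 had no RefSeq window, so the distance to their neighbours' starts was not measured. The first gene left out was Hist1h2bp.

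The lowest index among genes with dense bodies belonged to Dusp1, Lrrc4, Atp5o, Zfp36, Pnrc1, H3f3b, Cyp11a1 and Hsp90aa1. Their mean index was 0.0051 to 0.015 times that of the median gene. The place of Lrrc4 here is uncertain, since its body counts can include those of Snd1. At the start Dusp1 had 12.1, 20.0 and 6.59 CPM, beside the body densities given above. Zfp36, which encodes an mRNA decay factor induced with Dusp1, had 12.1, 20.0 and 8.33 CPM at the start and 40.7, 38.8 and 60.7 CPM per kb over the body. H3f3b, a gene of the replication-independent histone H3.3, had 17.0, 13.0 and 14.9 CPM at the start and 38.0, 22.8 and 48.4 CPM per kb. Hsp90aa1, the inducible HSP90, had 8.49, 8.25 and 2.43 CPM at the start, from 14, 7 and 7 counts, and 17.5, 11.8 and 21.4 CPM per kb. All 8 starts lay below the lower quartile of genes in each library, which was 24.3, 28.3 and 20.1 CPM. The next gene after Hsp90aa1 was Rpl3. Whether the counted window covered the start in use at these genes was not tested.

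Relative to the median gene, steroidogenic genes carried more of their polymerase over the gene body. Of 20 measured, 12 had a lower and 4 a higher TSS than gene body share (28.4% and 45.3% of all genes). On the index 15 stood below the median gene and 1 above (32.9% and 33.1% of all genes). Their median log2 index was -2.10, against -0.02 for all genes, and their median span 11.2 kb, against 22.9 kb. The 1 gene above was Stard3, a cholesterol-binding protein of late endosomes, with 142, 133 and 192 CPM at the start and 1.31, 1.64 and 1.71 CPM per kb over the body. The start of Stard3 lies 85 bp from that of another annotated gene, so its window can read both.

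Cyp11a1 encodes the enzyme that cleaves the cholesterol side chain, the first reaction of steroid synthesis. Its start window held 7.88, 3.54 and 3.12 CPM, from only 13, 3 and 9 counts. Its body held 353, 213 and 397 CPM over 29.0 kb. Its 2 RefSeq starts are at positions 57998024 and 58014952 of chromosome 9, and the deposited tables do not say which was counted. Star held 54.0, 41.2 and 36.8 CPM at the start against 884, 347 and 560 CPM over its body of 7.51 kb. Hsd3b1, the 3-beta-hydroxysteroid dehydrogenase, held 13.9, 17.7 and 15.6 CPM at the start and 264, 110 and 202 CPM over the body. Its log2 index was -4.38 ± 0.30 (SE, n = 3, edgeR adjusted p = 0.000121).

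Of the later enzymes, Cyp11b1 and Cyp21a1 had fuller starts. Cyp11b1, which makes corticosterone, held 154, 95.5 and 101 CPM at the start and 375, 183 and 380 CPM over the body, a log2 index of -3.54 ± 0.22 (edgeR adjusted p = 0.000115). Cyp11b2, the aldosterone synthase of the outermost zone, was far lower over the body, at 40.3, 19.8 and 8.49 CPM, and had 14.6, 16.5 and 2.08 CPM at the start. Both of its values were lowest in replicate 3, and its log2 index was -3.63 ± 0.35 (edgeR adjusted p = 0.000203). It shares much of its sequence with Cyp11b1, so single counts of the pair are uncertain. Cyp21a1, the steroid 21-hydroxylase, had near equal shares in replicates 1 and 2 and a lower one at the start in replicate 3, with 111, 97.8 and 26.7 CPM at the start and 114, 71.2 and 76.9 CPM over a body of only 3.08 kb. Its log2 ratio of shares was -0.35 ± 0.36 (edgeR adjusted p = 0.404) and turned to 0.18 without replicate 3, while its index was -3.64 ± 0.35 (edgeR adjusted p = 0.000202).

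Fdx1, Scarb1 and Nr5a1, which feed or regulate the pathway, had starts well above the median gene. Fdx1, the ferredoxin that passes electrons to the mitochondrial enzymes, held 327, 255 and 265 CPM at the start and 60.2, 19.8 and 31.5 CPM per kb over the body. Scarb1, the receptor that takes up cholesterol from high-density lipoprotein, held 266, 213 and 142 CPM and 49.5, 17.8 and 34.2 CPM per kb. Nr5a1, the transcription factor SF-1, held 152, 156 and 115 CPM and 22.1, 13.0 and 17.5 CPM per kb. All 3 also had bodies many times denser than the median gene, and their log2 index was -1.84 ± 0.30, -2.23 ± 0.39 and -1.89 ± 0.22. The largest edgeR adjusted p of these was 0.00186, for Scarb1. Mrap, the accessory protein of the ACTH receptor, stood at -2.84 ± 0.26 (edgeR adjusted p = 0.000188), and the receptor gene Mc2r at -1.52 ± 0.29 (edgeR adjusted p = 0.00283). Mc2r was low in both regions, with 21.2, 16.5 and 8.68 CPM at the start and 1.57, 1.15 and 1.42 CPM per kb.

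**Figure D3:**
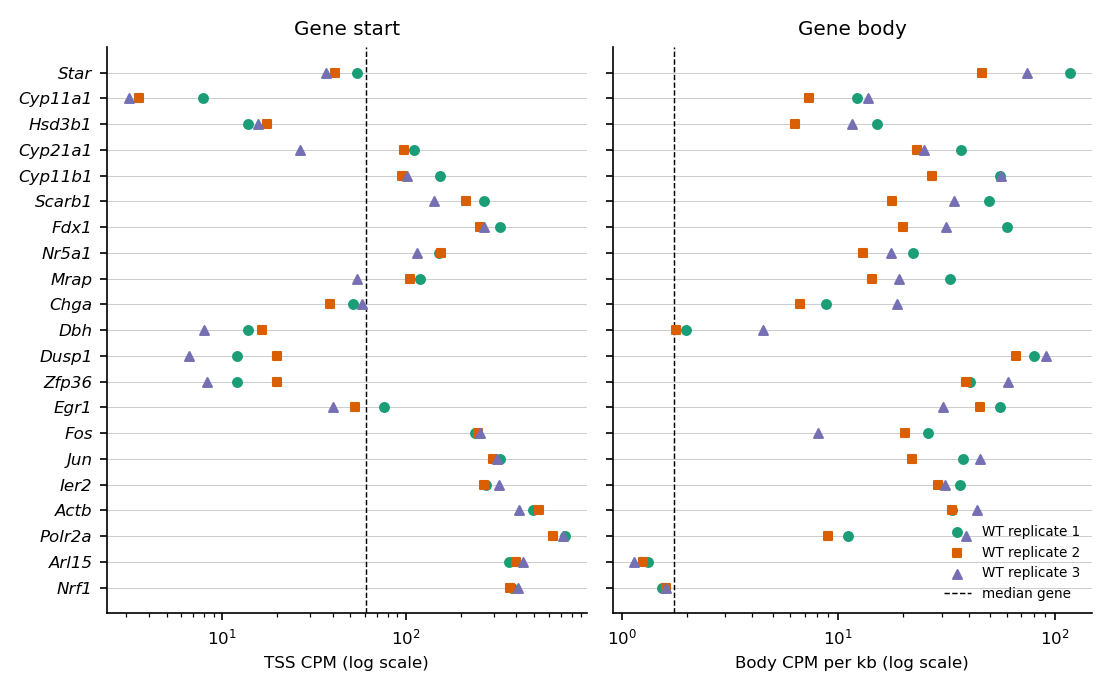
RPB1 at the start (CPM, left) and over the gene body (CPM per kb, right) in each of 3 WT libraries, on log axes, with the median gene dashed. Star, Cyp11a1 and Hsd3b1 lie below the median at the start and above it over the body, whereas Arl15 and Nrf1 lie above it at the start and below it over the body.

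Of 21 cholesterol synthesis genes measured, 10 had a higher and 1 a lower TSS than gene body share (47.6% and 4.76%, against 45.3% and 28.4% of all genes). On the index 8 stood above and 7 below the median gene (38.1% and 33.3%), near the 33.1% and 32.9% of all genes. Insig1, which retains the SREBP activator in the endoplasmic reticulum, held 338, 316 and 531 CPM at the start and 7.02, 5.34 and 7.31 CPM per kb over the body. Of the 12 genes for cholesterol uptake and storage, 2 stood above and 4 below the median gene (16.7% and 33.3%, against 33.1% and 32.9% of all genes).

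The genes of the medulla leaned to the gene body, and most had low starts. Of 23 chromaffin genes, 20 stood below the median gene on the index (32.9% of all genes), and Scg5, Pcsk2 and Scg3 did not pass the test in either direction. The median log2 index was -2.24, and -1.30 over members of at least 5 kb. Their median start held 15.0 CPM, against 60.4 CPM for all genes, and their median body 2.07 CPM per kb, against 1.74. Chga, the granule protein chromogranin A, held 51.5, 38.9 and 58.0 CPM at the start and 8.80, 6.63 and 18.7 CPM per kb over the body. Pnmt, which makes adrenaline, held 21.2, 13.0 and 13.5 CPM at the start and 10.7, 5.74 and 31.2 CPM per kb. Dbh, which makes noradrenaline, held 13.9, 16.5 and 7.98 CPM and 1.98, 1.78 and 4.51 CPM per kb. All 3 genes had their densest bodies in replicate 3. Chgb, the related granule protein, held 12.7, 20.0 and 1.04 CPM at the start, from 21, 17 and 3 counts, with replicate 3 the lowest. Its body held 3.83, 3.28 and 3.43 CPM per kb. The log2 index of Chga, Pnmt and Dbh was -2.69 ± 0.22, -4.70 ± 0.48 and -2.69 ± 0.43, each with an edgeR adjusted p of at most 0.00132. For Pnmt the ratio of shares was -0.44 ± 0.50 (edgeR adjusted p = 0.448) and turned to 0.41 without replicate 3.

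The cAMP pathway that carries the ACTH signal was divided between its members. Of 17 genes 10 stood above the median gene on the index (58.8%, against 33.1% of all genes) and 4 below, with a median span of 71.8 kb. Prkaca, the catalytic subunit of protein kinase A, had 97.6, 136 and 118 CPM at the start and 1.69, 2.04 and 2.15 CPM per kb over the body. Atf1, a transcription factor that the kinase phosphorylates, had 284, 271 and 271 CPM at the start. At the other end, Gnas, the stimulatory G protein, had 7.28, 9.43 and 12.1 CPM, and Prkar1a, the regulatory subunit of the kinase, 18.2, 24.7 and 7.98 CPM. Their bodies held 4.27, 3.21 and 6.32 and 11.02, 6.47 and 9.69 CPM per kb. Gnas has 4 RefSeq starts and Prkar1a 6, and the tables do not say which was counted.

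Immediate early genes, which cells switch on within minutes of a stimulus, were high in both regions. Over 22 genes the median start held 235 CPM and the median body 20.1 CPM per kb, against 60.4 and 1.74 for all genes. By shares 14 were higher at the start and 6 lower (63.6% and 27.3%, against 45.3% and 28.4% of all genes). On the index 2 stood above and 13 below the median gene (9.09% and 59.1%, against 33.1% and 32.9%). The median span was 3.62 kb and the median log2 index -1.05, near the -1.04 of the shortest group of genes by span. Whether anything besides length is behind this lower index was not tested. Fos held 239, 246 and 252 CPM at the start and 26.0, 20.4 and 8.07 CPM per kb over the body. Its start varied little between mice while its body was lowest in replicate 3, and its log2 index was -0.99 ± 0.36 (edgeR adjusted p = 0.0438). That call was lost without replicate 1 or 2 (edgeR adjusted p = 0.186 and 0.113). Jun held 325, 297 and 314 CPM at the start and 37.5, 21.97 and 44.9 CPM per kb, with the body highest in replicate 3, the opposite of Fos.

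Egr1, a zinc finger early gene, had a weaker start and a dense body, with 76.4, 53.0 and 40.3 CPM and 55.8, 45.2 and 30.4 CPM per kb. Its log2 index of -4.53 ± 0.19 (edgeR adjusted p = 6.8e-05) lay between that of Fos and those of Dusp1 and Zfp36. Ier2 held 272, 265 and 322 CPM at the start and 36.4, 28.8 and 31.1 CPM per kb. Over the body Fos and Egr1 were lowest in replicate 3, and Ier2 varied less. Myc held 184, 183 and 145 CPM at the start and 13.8, 8.36 and 13.3 CPM per kb, a log2 index of -1.04 ± 0.20 (edgeR adjusted p = 0.00316). How long each gland took from death to crosslinking, and how each mouse was handled, are not stated in the labels.

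Of 16 heat shock genes, 3 stood above and 6 below the median gene on the index (18.8% and 37.5%, against 33.1% and 32.9% of all genes). Hspa1a and Hspa1b, the inducible HSP70 genes, lie next to each other and are nearly identical, so their counts are uncertain. Hspa1a held 69.7, 91.9 and 73.2 CPM at the start and 3.91, 3.40 and 1.31 CPM per kb over the body. Its log2 index was -0.01 ± 0.36 (edgeR adjusted p = 0.977), and it was 0.40 without replicate 1, 0.10 without replicate 2 and -0.55 without replicate 3 (edgeR adjusted p = 0.0104). The constitutive Hspa8 held 101, 97.8 and 47.5 CPM at the start and 33.0, 18.4 and 38.5 CPM per kb, with a log2 index of -3.48 ± 0.35 (edgeR adjusted p = 0.000233). Hsp90ab1, its constitutive partner chaperone, held 264, 249 and 288 CPM and 11.3, 8.34 and 15.0 CPM per kb, with a log2 index of -0.35 ± 0.17 (edgeR adjusted p = 0.11). With 1 kb taken off each span, to leave out the start, it stood at -0.63 (edgeR adjusted p = 0.0135).

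Ribosomal protein and histone genes, which are short, gave opposite answers on the 2 scales. So did the shortest of the 5 equal groups by span, with a median log2 index of -1.04. In that group 81.8% of genes had more TSS than gene body CPM in all 3 libraries. Of 76 ribosomal protein genes, 60 had a higher TSS than gene body share (78.9%, against 45.3% of all genes), but 58 stood below the median gene on the index and 2 above (76.3% and 2.63%, against 32.9% and 33.1%). Their median start held 156 CPM and their median body 10.3 CPM per kb. Their median log2 index was -0.97, near that of the shortest group. Rplp1 held 322, 265 and 323 CPM at the start, whereas Rpl3 held 6.67, 9.43 and 5.55 CPM with a body of 19.6, 13.2 and 25.4 CPM per kb. Ribosomal protein genes have many processed copies that can share reads. Of the 57 genes of oxidative phosphorylation, with a median span of 7.13 kb, 46 had the higher share at the start (80.7%, against 45.3% of all genes). On the index 19 of these stood above and 21 below the median gene (33.3% and 36.8%), near the shares of all genes. Among 35 replication-dependent histone genes, 34 had the higher share at the start (97.1%, against 45.3% of all genes) and 29 stood below the median gene on the index (82.9%, against 32.9%). Their median span was 0.504 kb, many are near-identical copies, and Hist2h2aa1 was listed at 0 over its body in all 3 libraries. Over members of at least 5 kb the median log2 index turned to 1.09 for the 3 histone genes left and 0.11 for oxidative phosphorylation, from -2.12 and -0.16. The 1.09 is the value of Hist1h2be, whose RefSeq span of 37.5 kb is far above the list median, so it rests on that span.

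Of 20 housekeeping references, 13 were higher at the start by share (65%, against 45.3% of all genes) and 15 stood below the median gene on the index (75%, against 32.9%). Their median log2 index was -1.16, and -0.33 over members of at least 5 kb. Their median span was 5.13 kb, and the shortest of the 5 equal groups by span had a median log2 index of -1.04. Actb held 491, 528 and 413 CPM at the start and 33.5, 33.4 and 43.6 CPM per kb over the body, a log2 index of -1.21 ± 0.21 (edgeR adjusted p = 0.00181). Eef1a1, a translation elongation factor, held 54.6, 47.1 and 77.7 CPM at the start beside 42.5, 30.5 and 57.4 CPM per kb, an index of -4.43 ± 0.19 (edgeR adjusted p = 6.8e-05). Gapdh, a glycolytic enzyme, stood at -3.20 ± 0.22 (edgeR adjusted p = 0.000121). Actb and Eef1a1 thus had bodies of similar density and starts that did not overlap.

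The genes for pausing and elongation factors themselves leaned to the start. Of 32 measured, 16 stood above the median gene on the index (50%, against 33.1% of all genes) and 4 below. Hexim1, the inhibitor of P-TEFb, was high in both regions, with 246, 225 and 317 CPM at the start and 12.9, 10.8 and 11.3 CPM per kb over the body. Supt4a, a DSIF subunit, held 110, 117 and 135 CPM at the start and 1.998, 1.81 and 1.79 CPM per kb. Ccnt1, the cyclin of P-TEFb, was at the opposite end, with 21.8, 21.2 and 14.2 CPM at the start and 5.63, 3.97 and 5.88 CPM per kb.

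**Figure D4:**
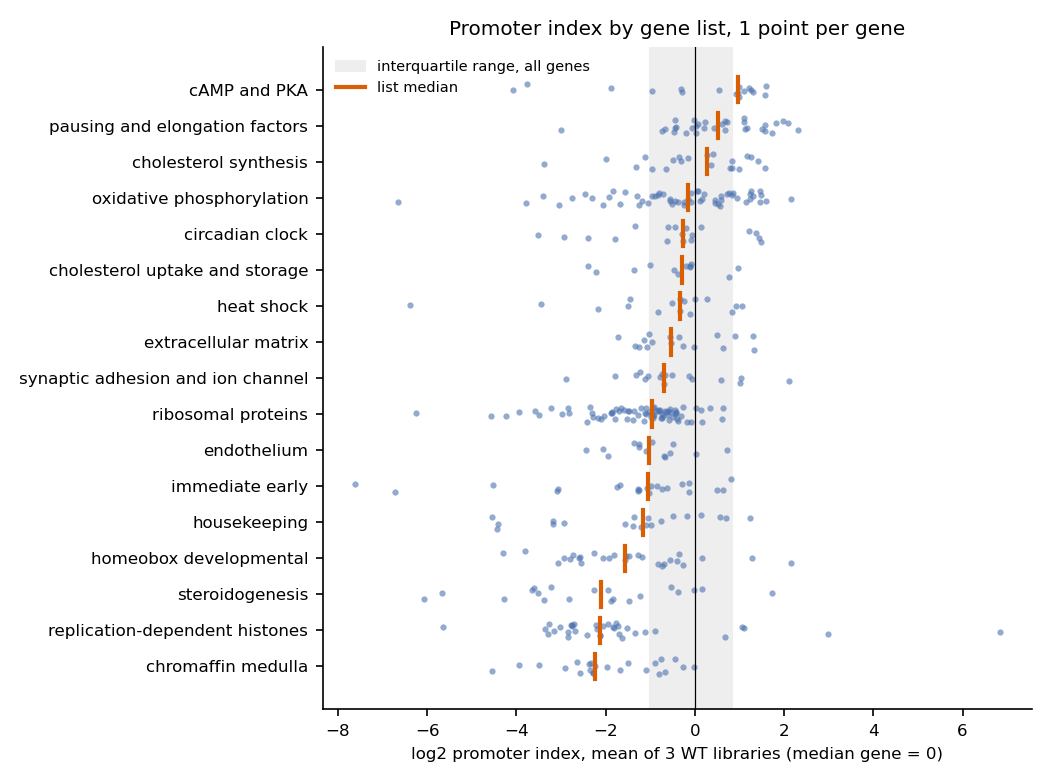
Log2 promoter index (mean of 3 WT libraries, median gene = 0) of each gene of 17 lists, with list medians in orange and the interquartile range of all genes in grey. Chromaffin, histone and steroidogenic genes have medians of -2.24, -2.12 and -2.10, and cAMP and PKA genes the highest, at 0.97. The point farthest right is Hist2h2aa1, whose body count was 0.

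The median starts of the vessel and matrix lists were lower than that of all genes, though single members were not. The 14 endothelial genes had a median start of 30.7 CPM, and on the index 11 stood below the median gene and 1 above (78.6% and 7.14%, against 32.9% and 33.1% of all genes). The 17 matrix genes had a median start of 33.9 CPM, and 9 stood below and 3 above (52.9% and 17.6%). Col1a1, a fibroblast collagen, held 32.7, 84.9 and 65.6 CPM at the start and 1.13, 1.73 and 1.24 CPM per kb, with replicate 1 the lowest in both. Its log2 index of 0.52 did not pass the test (edgeR adjusted p = 0.11). Of the marker lists for tissue next to the gland, 3 of 13 kidney tubule, 3 of 11 adipocyte and 1 of 10 liver genes were in the tables. Their summed start counts were 21.8 to 48.3, 54.2 to 84.9 and 4.16 to 9.70 CPM. Fat marker Fabp4 held 58.8, 23.6 and 59.0 CPM at the start. Macrophage and lymphocyte genes, 6 of 17, summed to 168 to 217 CPM, most of it from Cd68 with 161, 108 and 132 CPM. The part of such cells in the values above was not tested. Of 28 homeobox and other developmental genes, 21 stood below the median gene on the index and 2 above (75% and 7.14%, against 32.9% and 33.1% of all genes). These too were short, with a median span of 5.60 kb, and their median log2 index was -1.56. Of 17 synaptic genes, listed for their length, 8 stood below and 3 above (47.1% and 17.6%), and all 17 had a lower TSS than gene body share (28.4% of all genes). In the longest of the 5 equal groups by span, 83.0% of genes had less TSS than gene body CPM in all 3 libraries. The count of 17 therefore cannot be told apart from length.

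Promoter letters varied along the index. Genes with a RefSeq window were put into 5 equal groups by index. From the lowest to the highest group the median GC content rose from 57.7% to 65.3% and the median number of CpG pairs per window from 14 to 27. Windows with a GC box (GGGCGG, either strand) made up 52.3% of the lowest and 74.3% of the highest group, and windows with the ETS core CCGGAAG 11.3% and 24.9%. TATAAA ran the other way, at 10.9% and 4.14%, as did AAGGTCA, a core sequence bound by SF-1, at 4.14% and 1.90%. The lowest group also had shorter genes, with a median span of 9.59 kb against 44.3 kb, and lower starts, with 16.3 against 128 CPM. Dusp1, in the lowest group, has a window with 31 CpG pairs and 67% GC, above the median of the highest group, so single genes depart from this course. The window of the inner Cyp11a1 start has 1 CpG pair.

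**Figure D5:**
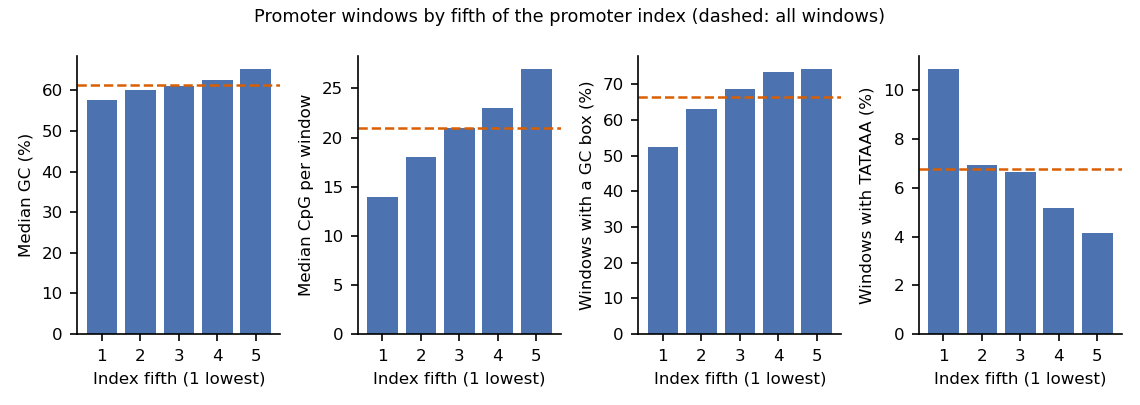
Median GC content (%), median CpG pairs per 300-base window, and the share of windows (%) with a GC box or TATAAA, in 5 equal groups of genes from the lowest (1) to the highest (5) promoter index, with all windows dashed. GC rises from 57.7% to 65.3% and CpG pairs from 14 to 27, while TATAAA falls from 10.9% to 4.14%.

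Genes with another start within 1 kb, 2432 in all, had a median of 82.6 CPM at the start, against 55.4 CPM for genes that had none. Their median gene bodies were nearer to each other, at 1.90 and 1.72 CPM per kb, and their median log2 index was 0.40 and -0.11. A window at a shared promoter can count both genes, and the part this has in the index of single genes was not tested. Among the 6663 genes tested that had no neighbour within 1 kb and no overlap, 2145 stood above and 2131 below the median gene of that set. Each library was centred again on these genes, so a near-even split was built in and does not bear on shared promoters.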

How the data were processed

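RPB1 ChIP-seq of adrenal glands from 3 WT mice was analysed from the TSS and gene body count tables. The counts were made and deposited by the authors as whole numbers per gene, with no normalisation. Per the submitters' processing notes the builds were GRCm38 and mm10, and the tools included BWA, Picard, HOMER, MACS2, bcl2fastq 2.20, Trimmomatic, limma and edgeR, with their roles left out. The counting tool, window widths, read filters and choice of genes were not given in the sources used here. Joint counts, log2 values and TES table were not used, and Armc5 and Th were not analysed here.

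Gm10800 was left out of the totals. Symbols were matched to RefSeq GRCm38.p6 for spans (12384 directly, 136 by an older symbol). TSS and gene body counts were fitted in edgeR 4.0.16 (R 4.3.3) with the library as a block, because both regions come from the same animal, filterByExpr (minimum count 10, minimum total 15) and the quasi-likelihood test. Log span was an offset on gene body columns for the index, and each library was centred on its median gene. Adjusted p-values are Benjamini-Hochberg values, with calls at 0.05. Standard errors are the log2 value over the square root of F. Log2 ratios per library used an added count of 0.5. The fits were tested on simulated data in which 12515 of 12715 genes had equal shares, and 0.136% of these were called. Of genes with a log2 change of 1 or -1, 52% and 54% were called, and with 2 or -2, 100% and 96%. All genes had the same span there, so the span offset of the index was not tried. Most genes were called in the real data, so the simulation differs from them in this too. P-values measure the spread between these 3 animals.

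Named genes were the 8 with the most TSS CPM, gene body CPM per kb, and highest or lowest ratio by their least favourable library. Also named were the 5 with most gene body CPM, 30 reference genes whatever their values, and up to 2 genes at each end of the CPM ratio in each of 21 lists. High ratios needed 10 gene body counts in each library and a start at or above the median gene. Spans had to be at least 1 kb for density ranks and 2 kb for index ranks. The lowest CPM ratio was sought among genes at or above the median gene body CPM, the lowest index in the upper quartile of density. Genes chosen by value have no test. Some genes that these rules name are counted but not reported here. Other genes named as neighbours or just outside a limit, Ywhaz among dense bodies, and the 3 chromaffin genes that passed no test, were named after their values were seen. The genes and lists were chosen with earlier results of these data known. Alternatives were TMM, RLE, Gm10800 kept, other filters, DESeq2 1.42.0, limma 3.58.1, a 2-fold threshold, no block, each library left out, other spans and isolated genes.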

Additional observations from a re-analysis of the deposited data

How the results depend on the processing

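Counts of genes called stayed within 1.5 times under other filters, DESeq2, limma and each left-out library, and by share also under TMM and RLE (9506 and 9504). A test against a 2-fold difference left 5707 genes by share (3508 higher, 2199 lower) and 3428 on the index (1517 and 1911). Among isolated genes, centred again on their own median gene, the index called 4276 (2145 and 2131), because fewer genes were tested. Leaving out 1 library gave 7284 to 10395 genes by share (4453 to 6536 higher, 2831 to 3859 lower) and 6157 to 9177 on the index (3083 to 4561 higher, 3074 to 4616 lower). Without the replicate block the fits called 9205 and 7847 genes, against 9367 and 8260. Keeping Gm10800 in the totals moved every log2 CPM ratio by -0.19 on average, and the index by nothing. TMM and RLE likewise cannot move the index, since each library is centred, and say nothing of its stability. The log2 ratio of shares changed sign when 1 library was left out for Cyp21a1 (-0.75 to 0.18, positive without replicate 3) and Pnmt (-0.85 to 0.41, positive without replicate 3). The log2 index changed sign for Hspa1a (-0.55 to 0.40, and 0.10 without replicate 2). Over genes of at least 5 kb the median log2 index turned to 0.11 for oxidative phosphorylation and 1.09 for histones. The histone value is that of Hist1h2be and rests on its RefSeq span of 37.5 kb. The median log2 CPM ratio turned to -0.42 for the 15 homeobox genes left and -1.32 for the 2 macrophage and lymphocyte genes left. This setting leaves out short genes, and the CPM ratio fell with span among all genes. Whether anything besides length is behind these turns was not tested. Depth limits low starts most: 295, 658 and 266 genes had under 10 TSS counts in replicates 1, 2 and 3.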

Other observations

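Of 18 genes of the circadian clock, 4 (22.2%) stood above and 6 (33.3%) below the median gene on the index in the edgeR test, against 33.1% and 32.9% of all genes. Bhlhe40, a repressor of the clock, had 220, 173 and 162 CPM at the start and 11.3, 6.02 and 8.75 CPM per kb over the body. Tef, an output factor, had 22.4, 14.1 and 19.4 CPM at the start and 4.21, 3.94 and 6.55 CPM per kb, so it carried little at the start beside a body denser than the median gene. Rora, over 735 kb, had 46.7, 56.6 and 60.4 CPM at the start and 2.18, 1.64 and 1.97 CPM per kb.

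In all, 145 genes were in the top 5% in both regions. The median span of these genes was 3.85 kb, against 22.9 kb for all genes. Of the listed genes, 44 were among them, including Fdx1, Actb, Fos, Jun, Ier2, Hexim1 and Polr2a.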
